A study of Mus musculus with 24 samples.

Results

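The genes described here are 9 transcription factor genes of the midbrain and its roof, the tectum: *Dmbx1*, *Otx1*, *Otx2*, *Foxb1*, *Pax3*, *Pax7*, *Meis2*, *Pou4f1* and *Pou4f2*. They are 9 of the 54446 genes counted in brain pieces of E14.5 *Tfap2b*-/- and *Tfap2b*+/+ mouse embryos. *Dmbx1* and *Foxb1* were selected on measured values, because they differed between the genotypes in the diencephalon, midbrain and hindbrain (DMH), the former higher and the latter lower in mutants. Their DMH genotype values are therefore given as a description. Where a count of called members in that comparison includes them, nothing is read from it. The other 7 genes were added as known transcription factors of the midbrain, with earlier results of these data in view, and for them the same comparison asks whether the difference was shared. All 9 genes were found, and in DMH none was removed for low counts.

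The midbrain forms between the diencephalon and the isthmus, a signalling centre at the border with the hindbrain, and its roof becomes the superior and inferior colliculi. Homeodomain factors of the Otx family mark the forebrain and midbrain and set the caudal border of the midbrain, while paired-box factors specify dorsal neural tissue, including the tectum. *Dmbx1* (diencephalon/mesencephalon homeobox 1) encodes a paired-like homeodomain repressor of the developing midbrain and diencephalon, and *Foxb1* a forkhead factor known from the mammillary region, midbrain and hindbrain.

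The samples were 12 embryos, labelled as 3 of each sex and genotype, from crosses of heterozygous mice that carry a PGK-neo cassette in an exon of *Tfap2b*, which encodes AP-2β. The allele is present in every cell of the embryo, and the controls were *Tfap2b*+/+ littermates. From each brain the secondary prosencephalon (SP) and the DMH were sequenced separately, giving 24 libraries of stranded, polyadenylated RNA. The DMH piece spans 3 territories, so a level in it depends on how much of each was taken, and in such bulk samples fewer cells of a type and less RNA per cell cannot be told apart. Female *Tfap2b*-/- replicate 3 (female mutant 3) was left out of the fits, following the study's own choice, and is given beside the other values.

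The libraries held 24.7 to 66.8 M fragments counted on genes (median 32.1 M). Levels are CPM, that is counts scaled to library size, normalized over all libraries by edgeR's TMM method. The floor of detection was set at 3 counts, or 0.0449 to 0.121 CPM by library, and covers counting error only. *Tfap2b* was at 281 to 435 CPM in the control DMH and 50.4 to 56.6 CPM in the mutant DMH, and at 2.75 to 4.72 CPM in SP of either genotype. The DMH libraries differed in piece content: the summed level of 14 caudal *Hox* genes, markers of the caudal hindbrain, was 0.0378 CPM in female control 1, 0.450 in female mutant 1, 0.105 in female mutant 2 and 11.5 in male mutant 2, against 338 to 520.5 CPM in the other 8. These 4 are called *Hox*-poor below, and they hold 1 control and 3 mutants. In the DMH of female mutant 3 the summed level of cartilage markers was 1739 CPM against 64.0 to 88.2 CPM elsewhere, and that of skeletal muscle markers 720 CPM against 6.05 to 9.34 CPM. The embryo labelled female control 2 had Y-linked transcripts at 121.8 to 133.4 CPM and *Xist* at no more than 0.0907 CPM in its SP and DMH libraries, against *Xist* at 174 to 914 CPM in the other libraries labelled female, so its markers are those of a male, and sex is used here as labelled.

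In GENCODE vM21 (GRCm38) all 9 genes lie on the minus strand. *Dmbx1* spans chr4:115915119-115939926 and *Foxb1* chr9:69757710-69760940. *Otx1* spans chr11:21994764-22002897, *Otx2* chr14:48657677-48673819, *Pax3* chr1:78101267-78197134 and *Pax7* chr4:139737062-139833528. *Meis2* spans chr2:115863064-116065839, *Pou4f1* chr14:104461676-104467999 and *Pou4f2* chr8:78433010-78436645. The long noncoding gene *B230323A14Rik* (chr9:69758740-69830845, plus strand) overlaps *Foxb1*, and *Otx2os1* overlaps *Otx2* on the opposite strand. The counts were taken by strand. *Gm49154* overlaps *Otx2* on the same strand, where strand does not separate their reads, and was at 0.0710 to 0.264 CPM in DMH.

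RefSeq promoter sequences (GRCm38.p6) were at hand for 6 of the 9 genes, and the 250 bases before each start were searched on both strands for GCCNNNGGC, a motif bound by AP-2 factors, and for TAATCC, a motif bound by Otx-type homeodomains. None of the 6 genes had the AP-2 motif in these windows, which 13.7% of all 32851 promoters hold, and *Otx2* alone had TAATCC, which 6.25% hold. A missing match says only that these letters are not in the window. The window of *Dmbx1*, a member selected on its genotype difference in DMH, is shown from chr4:115939927-115940176 (minus strand). It has no capitals because neither motif occurs in it. Of *Otx2*, 30 bases around the match are shown from chr14:48665303-48665332 (minus strand), where capitals mark the reverse complement of TAATCC, beginning 211 bases before the start.
Dmbx1: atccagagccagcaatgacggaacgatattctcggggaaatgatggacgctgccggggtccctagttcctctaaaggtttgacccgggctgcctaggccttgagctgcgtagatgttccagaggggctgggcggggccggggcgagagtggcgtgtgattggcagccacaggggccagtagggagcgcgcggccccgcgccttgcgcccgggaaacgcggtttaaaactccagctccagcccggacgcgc
Otx2: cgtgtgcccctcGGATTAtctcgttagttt

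The comparison of DMH with SP in controls shows where along the brain the 9 genes were transcribed. Of the 9, 7 were higher in DMH and 2, *Otx1* and *Meis2*, were lower at a false discovery rate (FDR) under 0.2 with a log2 fold change beyond 0.5 in either direction. The FDR is the p of edgeR's quasi-likelihood test after Benjamini-Hochberg adjustment over all genes tested, and SE is the standard error of the log2 fold change. Among all genes tested 35.0% passed these thresholds, 3410 higher and 2408 lower in DMH. *Dmbx1* was at 16.3 to 27.9 CPM in the control DMH and 0 to 0.230 CPM in the control SP, a log2 fold change of 7.17 (SE 0.22, FDR 1.41e-11). *Pax3*, *Pax7* and *Pou4f1* were likewise low in SP, with means there of 1.11%, 0.353% and 1.04% of the DMH means, and their ranges in the 2 regions did not overlap. *Pou4f2*, a marker of tectal and retinal neurons, had no count in any control SP library and was at least 318-fold higher in DMH, computed against a floor of 3 counts.

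The Otx genes were the members with sizeable SP levels besides *Meis2*. *Otx2*, which is needed for the forebrain and midbrain to form, was at 15.7 to 24.7 CPM in the control SP against 63.6 to 136.1 CPM in DMH (log2 fold change 2.07, SE 0.14, FDR 1.14e-07). *Otx1*, its paralog, which is also used in the cortex, was at 41.3 ± 5.84 CPM (SD, n = 6) in the control SP and 24.8 ± 9.06 in DMH (log2 fold change −0.78, SE 0.14, FDR 0.000445), although the lowest SP library (31.9 CPM) lay below the highest DMH library (40.8 CPM). *Meis2*, a TALE homeodomain factor of the tectum and of the ganglionic eminences, was at 525 to 549 CPM in SP and 267 to 384 CPM in DMH, without overlap (log2 fold change −0.62, SE 0.07, FDR 1.29e-06). *Foxb1* was at 0.102 to 0.385 CPM in 5 control SP libraries and at 3.40 CPM in male control 1, and its log2 fold change between the regions was 4.71 (SE 0.61, FDR 6.55e-05).

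**Figure D1:**
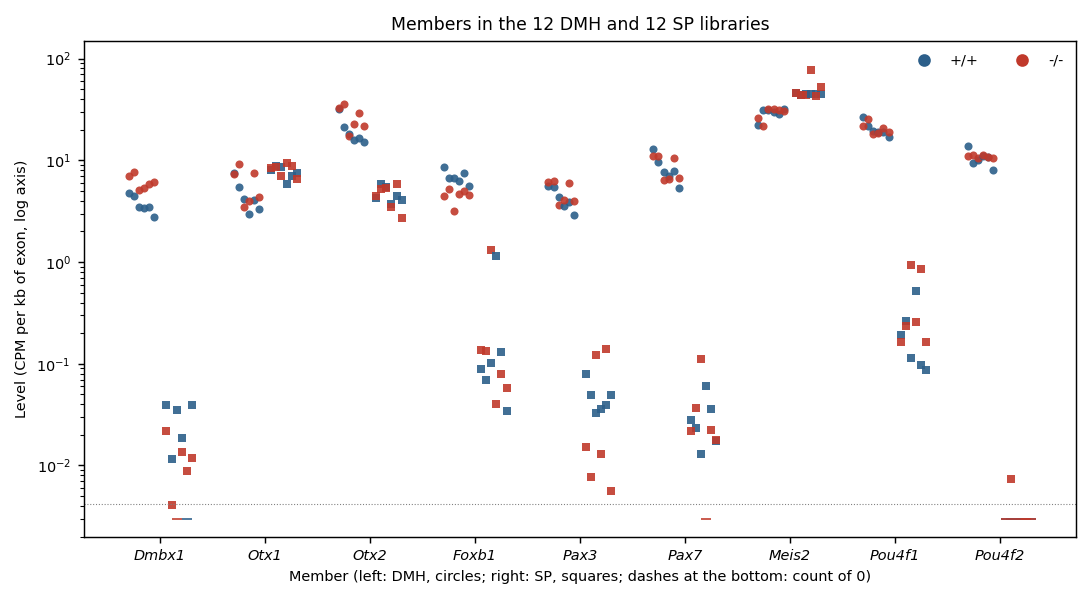
CPM per kb of exon (log axis) of each gene in every library, DMH as circles and SP as squares, by genotype, with counts of 0 as dashes at the bottom. The SP values of *Otx1* and *Meis2* lie near those of DMH, whereas those of *Dmbx1*, *Pax3*, *Pax7* and *Pou4f1* lie far below, and *Pou4f2* has a single SP library with a count.

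Per kb of exon, the control DMH levels ran from *Meis2* at 29.3 ± 3.66 CPM per kb (SD, n = 6) through *Pou4f1* at 20.4 ± 3.42, *Otx2* at 19.9 ± 6.46, *Pou4f2* at 10.5 ± 1.98 and *Pax7* at 8.43 ± 2.62 to *Foxb1* at 6.88 ± 1.01, *Otx1* at 4.58 ± 1.67, *Pax3* at 4.32 ± 1.06 and *Dmbx1* at 3.74 ± 0.730. Each gene's range overlapped that of its neighbours in this order, except that the lowest *Otx2* value (15.1 CPM per kb) lay above the highest of *Pou4f2* (13.9 CPM per kb). *Dmbx1* was thus at the low end of the group in controls. In the mutant DMH it was at 6.19 ± 1.02 CPM per kb and *Foxb1* at 4.54 ± 0.716 CPM per kb (SD, n = 6).

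*Dmbx1* was at 27.9, 26.0 and 20.4 CPM in the female control DMH and at 41.0, 45.5 and 29.7 CPM in the female mutant DMH, the last being female mutant 3. In males it was at 20.1, 20.5 and 16.3 CPM in controls and 31.4, 34.4 and 35.5 CPM in mutants. Every mutant lay above every control, with means of 36.2 ± 5.96 and 21.9 ± 4.28 CPM (SD, n = 6). The smallest gap was that between female control 1 and female mutant 3, at 27.9 and 29.7 CPM. The fitted log2 fold change in DMH of both sexes, with sex as a covariate and without female mutant 3, was 0.81 (SE 0.08), and it was 0.82 (SE 0.13) in females and 0.80 (SE 0.10) in males.

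*Foxb1* was at 25.5, 19.9 and 19.9 CPM in the female control DMH and at 13.3, 15.7 and 9.57 CPM in the female mutant DMH. In males it was at 18.9, 22.2 and 16.8 CPM in controls and 13.98, 14.96 and 13.74 CPM in mutants. Every mutant lay below every control, and female mutant 3 had the lowest value. The means were 13.5 ± 2.14 CPM in mutants and 20.5 ± 3.01 CPM in controls (SD, n = 6), and the fitted log2 fold change was −0.51 (SE 0.09). The overlapping *B230323A14Rik*, on the opposite strand, also separated the genotypes, at 3.57 to 5.14 CPM in controls and 2.05 to 3.47 CPM in mutants.

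In the fit of DMH of both sexes 2 of the 9 members passed the thresholds, *Dmbx1* and *Foxb1* themselves, against 0.0478% of all genes tested (8 of 16744). Because the pair was selected on this comparison, nothing is read from that count. Over all 12 DMH libraries, genes with every mutant above every control made up 0.0344% of the 14535 genes with a mean of at least 1 CPM, and those with every mutant below every control 0.0413%. None of the other 7 members separated the genotypes completely. In the separate fits none of these 7 passed in males (0.0236% of all genes did) or females (0.00596%) by the quasi-likelihood test. *Otx2* had an unadjusted p under 0.05 in males, where DESeq2 called it, and *Pax3* in females, where DESeq2 called none of the 7.

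**Figure D2:**
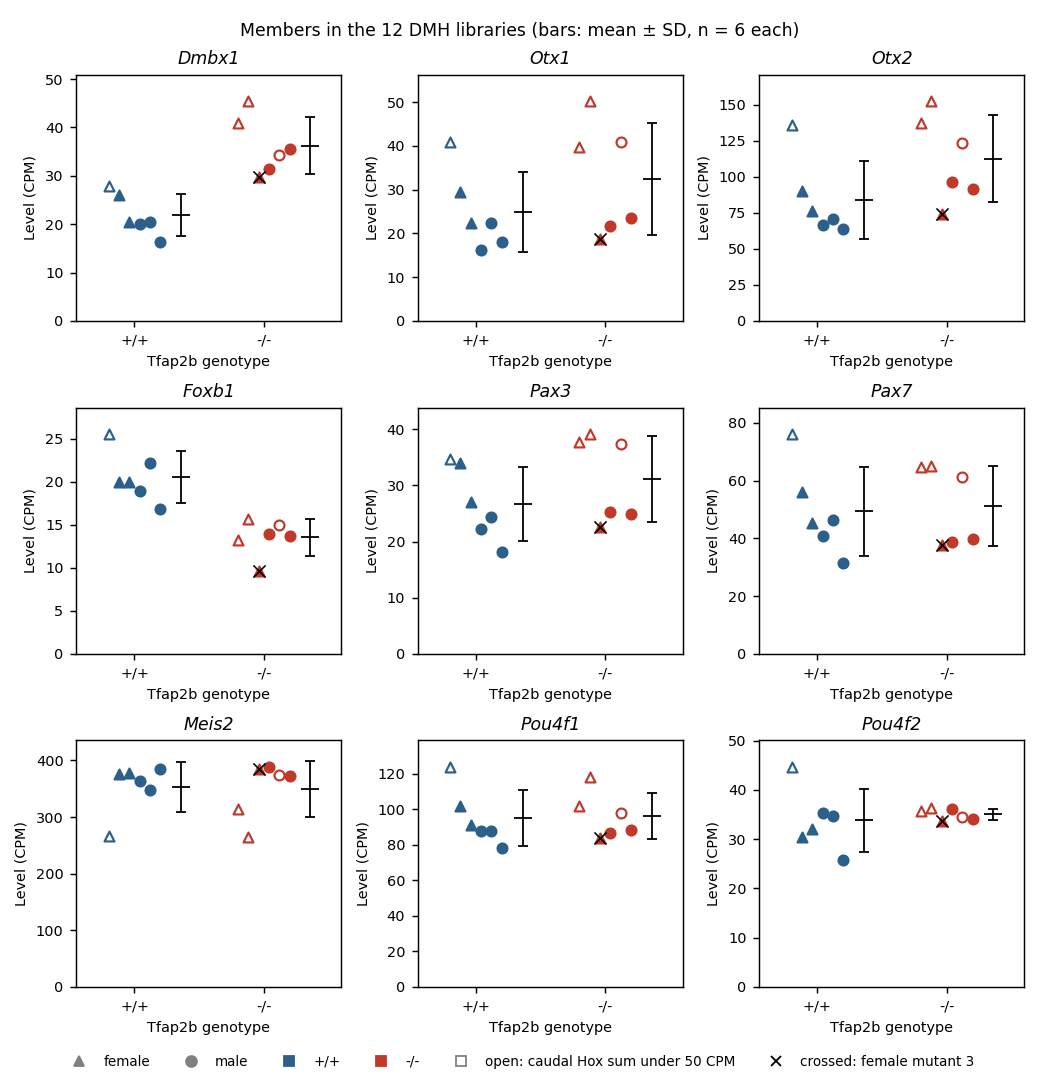
CPM of the 9 genes in each DMH library, +/+ against -/-, with the mean and SD of 6 libraries, triangles for females, circles for males, open symbols for *Hox*-poor libraries and a cross on female mutant 3. The genotypes are fully apart for *Dmbx1* (16.3 to 27.9 against 29.7 to 45.5 CPM) and *Foxb1* (16.8 to 25.5 against 9.57 to 15.7 CPM) and overlap in the other 7 panels.

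Among the members not selected on DMH values, *Otx2* had the largest difference relative to its error. It was at 136.1, 90.4 and 76.3 CPM in the female control DMH and 137.3, 153 and 74.0 CPM in the female mutant DMH. In males it was at 66.4, 70.7 and 63.6 CPM in controls and 96.6, 124 and 91.6 CPM in mutants. The male genotypes did not overlap, as in 7.62% of the genes with a mean of at least 1 CPM in DMH, which had every male mutant above every male control. In females the *Hox*-poor control 1 was as high as mutant 1 and female mutant 3 was lower than every female control. The log2 fold change in both sexes was 0.58 (SE 0.14, 95% interval 0.31 to 0.85), with an FDR of 0.323 in edgeR's quasi-likelihood test. The antisense *Otx2os1* overlapped between the genotypes too over all DMH libraries, at 1.35 to 3.78 and 2.20 to 3.58 CPM. In males it did not overlap, at 1.35 to 2.21 CPM in controls and 2.54 to 3.58 CPM in mutants. For *Otx2* the thresholds were passed in the likelihood ratio test (FDR 0.0541) and in DESeq2 (0.0105), and without female control 1 it was 0.69 (FDR 0.0170). The fits that each left out a library called 2 to 515 of all genes. In males alone the log2 fold change of *Otx2* was 0.61 (SE 0.10), with an FDR of 0.870 in the quasi-likelihood test and 0.000639 in DESeq2.

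*Otx1* was at 16.2 to 40.8 CPM in the control DMH (median 22.3 CPM) and 18.8 to 50.3 CPM in the mutant DMH (median 31.7 CPM). The genotypes overlapped over most of this range, and the log2 fold change of 0.57 (SE 0.20, 95% interval 0.18 to 0.96) did not pass (FDR 0.323). *Pax3*, a paired-box factor of the dorsal neural tube and neural crest, was at 18.1 to 34.7 CPM in controls and 22.7 to 39.2 CPM in mutants (log2 fold change 0.35, SE 0.12, FDR 0.323). In males its genotypes did not overlap, at 18.1 to 24.3 and 24.9 to 37.3 CPM, and in females they did. Such a separation upward was seen in 7.62% of genes in male DMH and downward in 2.15%. For *Pax7*, its paralog and a marker of the tectum, the ranges were 31.4 to 76.2 and 37.6 to 65.2 CPM, with the highest value in a control (log2 fold change 0.18, 95% interval −0.14 to 0.50, FDR 0.558).

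The remaining members had the smallest differences. *Meis2* was at 352.6 ± 44.1 CPM in the control DMH and 349.6 ± 49.9 CPM in the mutant DMH (SD, n = 6), a log2 fold change of −0.09 with a 95% interval of −0.26 to 0.09 (FDR 0.611). *Pou4f1* (Brn3a), a POU factor of tectal, habenular, red nucleus and sensory neurons, was at 78.5 to 124 CPM in controls and 83.9 to 118 CPM in mutants (log2 fold change 0.07, 95% interval −0.07 to 0.22, FDR 0.594). For *Pou4f2* (Brn3b) the ranges were 25.7 to 44.7 and 33.6 to 36.3 CPM (log2 fold change 0.07, 95% interval −0.14 to 0.28, FDR 0.741). The genotypes overlapped in all 3 genes, and for *Meis2* the mutants spanned the wider range, 264 to 389 CPM against 267 to 384 CPM in controls.

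To ask how far these values moved with piece content, the libraries were compared by their caudal *Hox* level. Leaving out female mutant 3, *Otx1* averaged 21.9 CPM in the 7 *Hox*-containing and 42.9 CPM in the 4 *Hox*-poor DMH libraries, and *Otx2* 79.4 and 137.4 CPM. *Meis2* went the other way, at 372.8 and 304.6 CPM. These sets hold the genotypes in unequal shares, 5 controls and 2 mutants against 1 control and 3 mutants, so *Dmbx1* and *Foxb1* are given by genotype. *Dmbx1* averaged 20.7 CPM in *Hox*-containing controls against 27.9 CPM in the *Hox*-poor control, and 33.5 against 40.3 CPM in mutants. *Foxb1* averaged 19.5 against 25.5 CPM in controls and 13.9 against 14.6 CPM in mutants. The same libraries differed in other territories, with a summed level of 10 diencephalic markers of 1564 to 1991 CPM in the *Hox*-poor and 915 to 1260 CPM in the other DMH libraries.

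Among the *Hox*-containing libraries, *Dmbx1* was at 16.3 to 26.0 CPM in 5 controls and at 31.4 and 35.5 CPM in 2 mutants, a ratio of means of 1.62. *Foxb1* was at 16.8 to 22.2 CPM in these controls and at 13.98 and 13.74 CPM in the mutants, a ratio of 0.710. Since both genes were selected as fully apart over all DMH libraries, they are apart in any subset, and only the size of the ratio is described here. *Otx2* was at 63.6 to 90.4 CPM in these controls and at 96.6 and 91.6 CPM in the mutants, narrowly apart, but female mutant 3, which also holds caudal *Hox* transcripts, was at 74.0 CPM. *Otx1*, *Pax3* and *Pax7* had ratios of 1.05, 0.999 and 0.891.

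Among the *Hox*-poor libraries the only control, female control 1, had 27.9 CPM of *Dmbx1* against 34.4 to 45.5 CPM in the 3 mutants, and 25.5 CPM of *Foxb1* against 13.3 to 15.7 CPM. Its *Otx2* level of 136.1 CPM lay inside the mutant range of 124 to 153 CPM. Its *Otx1* level of 40.8 CPM was likewise inside the mutants' 39.8 to 50.3 CPM. For *Pax7*, *Pou4f1* and *Pou4f2* this control exceeded all 3 mutants, at 76.2 against 61.3 to 65.2 CPM, 124 against 97.8 to 118 CPM and 44.7 against 34.4 to 36.3 CPM. For *Pax3* it was below them, at 34.7 against 37.3 to 39.2 CPM. With 1 control in this set, no spread between controls is known. The share of all genes with this control outside the mutant range was not computed, so nothing is read from these positions.

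The fit of both sexes was repeated with added covariates and with *Hox*-containing libraries only. The midbrain GABAergic fate genes, summed for a covariate, themselves had a median log2 fold change of 0.22. Whether their sum reflects piece content or genotype was not tested. With the caudal *Hox* level as a covariate, the log2 fold change was 0.34 for *Otx2* (FDR 0.623), 0.24 for *Otx1*, 0.22 for *Pax3*, −0.07 for *Pax7* and 0.08 for *Meis2*, and 0.74 for *Dmbx1* and −0.60 for *Foxb1*. With the summed level of 10 midbrain GABAergic fate genes as the covariate, it was 0.68 for *Dmbx1*, −0.65 for *Foxb1*, 0.32 for *Otx2* and 0.17 for *Otx1*. In the *Hox*-containing libraries with female mutant 3 added, it was 0.64 for *Dmbx1*, −0.69 for *Foxb1*, 0.25 for *Otx2* and 0.00 for *Otx1*. In the fit without these changes *Otx1* was at 0.57 and *Otx2* at 0.58. The values of *Dmbx1* and *Foxb1* come from the comparison they were selected on, so they are not set against those of the other members. In the 7 *Hox*-containing libraries alone, *Dmbx1* was at 0.80, *Foxb1* at −0.49 and *Otx2* at 0.47, past the FDR (0.159) but not the fold threshold. In the *Hox*-containing libraries, with or without female mutant 3, 0 of the 9 members passed both thresholds, *Dmbx1* and *Foxb1* included. Of all genes 0.0228% passed in the fit without female mutant 3 (4 genes) and 0.0173% in the fit with it (3 genes).

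**Figure D3:**
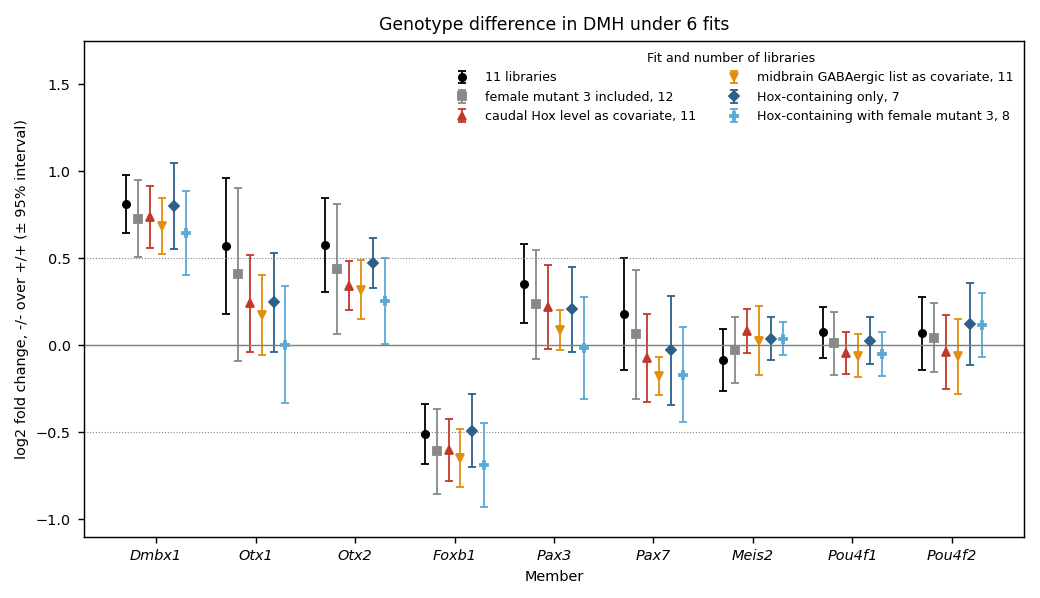
Log2 fold change (-/- over +/+) of each gene in DMH with its 95% interval, under 6 fits that differ in covariates and libraries, with dotted lines at ±0.5. Over the 6 fits *Otx2* ranges from 0.25 to 0.58 and *Otx1* from 0.00 to 0.57. *Dmbx1* (0.64 to 0.81) and *Foxb1* (−0.69 to −0.49) were selected on this comparison.

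A ratio of 2 members within a library is free of the library's depth. Over all 12 DMH libraries, the ratio of *Dmbx1* to *Pax7* was 0.367 to 0.520 in controls and 0.561 to 0.894 in mutants. The ratio of *Dmbx1* to *Pou4f1* was 0.208 to 0.255 and 0.351 to 0.402, and that of *Dmbx1* to *Pax3* 0.755 to 0.907 and 0.921 to 1.43. None of the 3 ratios overlapped between the genotypes, whereas *Dmbx1* to *Otx2* did, at 0.205 to 0.303 and 0.278 to 0.402. Relative to *Otx2*, *Foxb1* was at 0.188 to 0.314 in controls and 0.0966 to 0.150 in mutants, without overlap, whereas relative to *Pax7* it overlapped, at 0.335 to 0.534 and 0.205 to 0.360. Ratios with *Dmbx1* or *Foxb1* carry the selection of these genes and are descriptions. The ratio of *Otx2* to *Pax7* overlapped, at 1.52 to 2.03 and 1.97 to 2.49.

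**Figure D4:**
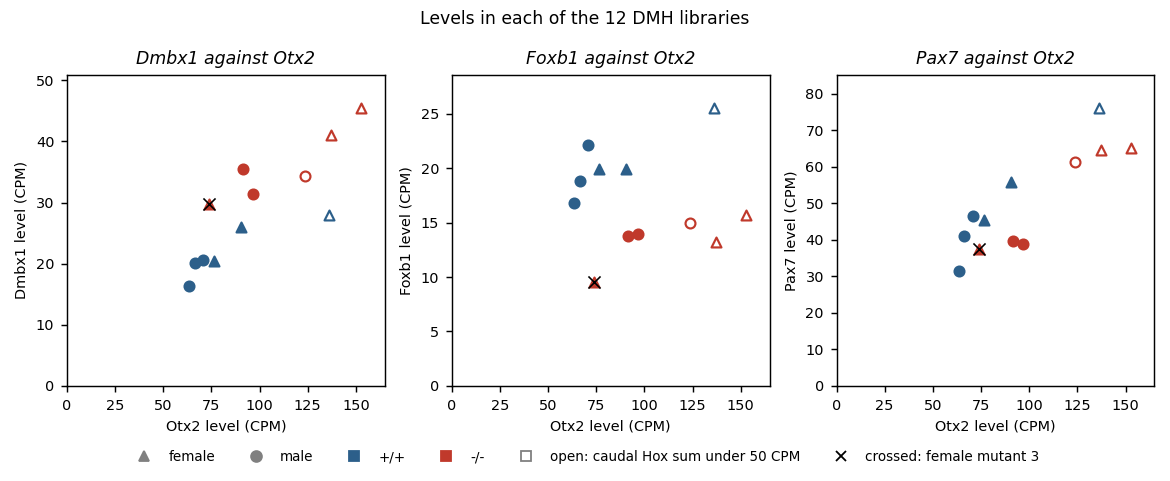
CPM of *Dmbx1*, *Foxb1* and *Pax7* against CPM of *Otx2* in each of the 12 DMH libraries, by genotype. *Dmbx1* and *Foxb1* were chosen for the separation of the genotypes, which therefore shows at any *Otx2* level, as in female control 1 and female mutant 1 (*Otx2* 136.1 and 137.3 CPM, *Dmbx1* 27.9 and 41.0 CPM, *Foxb1* 25.5 and 13.3 CPM).

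Across the 12 DMH libraries, among which piece content and genotype vary for all genes at once, Pearson's r of log2(CPM + 0.5) was 0.95 between *Otx1* and *Otx2*, 0.94 between *Otx1* and *Pax3*, 0.94 between *Pax3* and *Pax7* and 0.94 between *Pax7* and *Pou4f1*. *Dmbx1* went with *Otx2* at 0.84 but with *Foxb1* at −0.48, and *Meis2* was at −0.74 with *Otx1* and −0.87 with *Pou4f1*. Among 14535 genes, those most like *Dmbx1* were *Slc39a7* (0.91), *Atraid* (0.89) and *Trim13* (0.87), and those most like *Foxb1* were *Tfap2b* (0.83), *Mdga1* (0.83) and *Mettl15* (0.81). Genes most like the others included *Nkx2-2* for *Otx1* (0.99), for *Otx2* *Bhlhe23* (0.97), for *Pax7* *Gata3* (0.99) and for *Pax3* *Irx3* (0.98). These are descriptions over 12 libraries, and *Foxb1* was chosen for a genotype difference that *Tfap2b* has by design.

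The wider set of 22 midbrain and tectal patterning genes had no member that passed in this fit of the DMH, where 17 had a positive and 5 a negative log2 fold change and the median was 0.23, against −0.0018 over all genes tested. The largest values were those of the proneural gene *Neurog2* (0.64, SE 0.24), *Bhlhe23* (0.63, SE 0.16), the isthmic and roof plate signal *Wnt1* (0.55) and *Nkx2-2* (0.43). With the caudal *Hox* level as a covariate the median of the 22 was 0.06, with 15 positive and 7 negative, and in the 7 *Hox*-containing libraries it was 0.07. The 13 caudal *Hox* genes tested had a median of −1.81 without the covariate, which is made from their own sum.

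Genes of neighbouring territories also had positive medians. The midbrain GABAergic fate list (10 genes, among them *Helt*, which is required for this fate, at 0.69, and *Tal2* at 0.60) had a median of 0.22, which was 0.10 with the *Hox* covariate. All 10 diencephalic markers were positive with a median of 0.37, led by *Olig3* (0.60) and *Dbx1* (0.52), and the median was 0.10 with the covariate. The isthmus list had a median of 0.24, and 0.05 with the covariate. Its members lay on either side, such as *Fgf8*, the isthmic organizer signal, at 1.06 (SE 0.46) and *Pax2* at −1.14 (SE 0.67). *Fgf8* was at 0.22 (SE 0.68) in females and was removed for low counts in males. *Pax2* was at −2.37 (SE 1.28) in females and −0.42 (SE 0.46) in males. None of these genes passed the thresholds.

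Lists closer to *Foxb1* and to single members gave no called gene either. The mammillary and caudal hypothalamic list, a territory where *Foxb1* is used, had a median of 0.23, with *Sim2* at 0.89 and the *Foxb1* paralog *Foxb2* at −0.43. Paralogs of members (6 tested) had a median of −0.01, with *Meis1* and *Foxb2* both at −0.43. The habenula list, where *Pou4f1* is used, had a median of 0.11, and that of the red nucleus and oculomotor neurons −0.10.

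The sexes are compared as labelled, and the female controls include control 2, whose markers are those of a male. The genotype effect in DMH differed between males and females by −0.01 (SE 0.18) in *Dmbx1*, 0.11 (SE 0.18) in *Foxb1* and 0.07 (SE 0.29) in *Otx2* on the log2 scale. *Dmbx1* and *Foxb1* were selected as apart over all DMH libraries, which fixed the same direction in both sexes. Their values here are descriptions. None of the 9 members passed the test of a difference between the sexes, as 0.0% of all genes did by the quasi-likelihood test, and none had an unadjusted p under 0.05. The 95% interval of the difference was −0.36 to 0.34 for *Dmbx1* and −0.25 to 0.47 for *Foxb1*. Without female control 2 the differences were −0.04 (SE 0.20) in *Dmbx1*, 0.18 (SE 0.19) in *Foxb1* and 0.15 (SE 0.31) in *Otx2*.

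In SP only *Otx1*, *Otx2*, *Meis2* and *Pou4f1* passed the filter on low counts in the fit of both sexes, and none passed the thresholds (0.0% of all genes tested did by the quasi-likelihood test, 795 genes had an unadjusted p under 0.05, and DESeq2 called 23). *Otx1* was at 31.9 to 47.2 CPM in controls and 35.5 to 50.7 CPM in mutants (log2 fold change 0.17, SE 0.11, FDR 0.925). *Otx2* was at 15.7 to 24.7 CPM in controls and 11.5 to 24.5 CPM in mutants (log2 fold change −0.05, SE 0.17, FDR 0.974). *Pou4f1* was at 0.407 to 2.42 CPM in controls and 0.759 to 4.34 CPM in mutants (log2 fold change 0.57, SE 0.53, FDR 0.929), and without male mutant 2 the fold change was −0.031. *Meis2* was at 525 to 549 CPM in controls, and 3 mutants lay above this range, female mutant 1 at 551 CPM, male mutant 3 at 640.5 CPM and male mutant 1 at 926 CPM (log2 fold change 0.22, SE 0.14, FDR 0.925). Without male mutant 1, which had 25.9% of its fragments on no gene, the highest share of all libraries, the fold change of *Meis2* was 0.053. In the separate fits no member passed in female SP (0.0181% of all genes did) or male SP (0.0%, where 605 genes had an unadjusted p under 0.05 and DESeq2 called 7).

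*Foxb1* in SP rested on a pair of libraries, male control 1 at 3.40 CPM (124 counts) and female mutant 3 at 3.93 CPM (155 counts), against 0.102 to 0.411 CPM in the other 10. These libraries also had the highest SP levels of the isthmus list, 17.7 and 21.1 CPM against 8.69 to 13.1 CPM, and of the midbrain GABAergic fate list, 76.9 and 75.2 CPM against 51.4 to 62.3 CPM. The part of midbrain tissue in these values was not tested. The interaction of region and genotype asks whether the genotype effect differed between DMH and SP. No member passed it by the quasi-likelihood test or DESeq2, against 0.00573% of all genes. Of the 7 members other than *Dmbx1* and *Foxb1*, *Otx2* alone had an unadjusted p under 0.05, with a difference of 0.59 (SE 0.22, FDR 0.999). For *Dmbx1*, selected on its DMH values, the fitted difference was 1.88 (SE 0.51, FDR 0.999), with the control SP at 0 to 0.230 CPM. For *Foxb1* the fitted difference was 0.92 (SE 0.84), opposite in sign to its DMH value, with male control 1 among the SP controls.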

How the data were processed

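RNA of the SP and the DMH of 12 E14.5 embryos was sequenced as stranded, polyadenylated RNA. Per the submitters' processing notes, reads were trimmed with cutadapt 2.4 and aligned to mm10 with STAR 2.6.1d, and edgeR was used. The authors deposited raw counts of read pairs per gene, without normalization, with replicates kept apart. Lines that name no gene held 17.3 to 25.9% of the fragments and were left out. The column for the strand of dUTP libraries was used, the unstranded column as an alternative, and 1 count column in no fit. Of 54446 identifiers 54409 matched a symbol and 37 did not, with gene positions from GENCODE vM21. Reads mapping to several places are not counted, which lowers genes with near-identical copies.

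Differences in counts were tested by edgeR 4.0.16 under R 4.3.3, with TMM scaling, filterByExpr, a robust quasi-likelihood fit and Benjamini-Hochberg adjustment over all genes of a fit, with an FDR threshold of 0.2 and a log2 fold change beyond 0.5, the thresholds of the study. The SE was taken as the size of the log2 fold change over the root of its F value, and 95% intervals are normal ones. Samples were grouped by region, sex and genotype from the labels, and p-values measure the spread between embryos. DMH against SP of controls was fitted without a block, since the study's methods name none, although both pieces came from the same embryo. Deviations of same-numbered SP and DMH libraries correlated at 0.081 to 0.546, and 11 of 12 libraries correlated best with their own number. The same numbers in controls and mutants are no pairs. Over 24 pairs of libraries of 1 group the lowest chi-square per gene was 9.62 (genes with at least 50 summed counts), so no library was a copy. On simulated data with 200 changed genes, for DMH of both sexes (16592 genes), the quasi-likelihood test found 98.0% at a log2 fold change of 1 and 98.0% at 2, with 14 false calls. The simulation drew each gene independently, without piece content that moves many genes together, and set no change smaller than 1. It therefore does not give the power for the smaller differences of the members.

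The members and gene lists were chosen with earlier results of these data known. Genes named are the 9 members, up to 4 genes of each list with the largest absolute log2 fold change, the genes overlapping members, and the 3 genes most like each member by Pearson's r over the DMH libraries. Some genes that meet this rule are not reported here. Lists held markers of midbrain and tectal patterning, midbrain GABAergic fate, isthmus, diencephalon, mammillary region, habenula, red nucleus and oculomotor neurons, paralogs of members, caudal *Hox*, telencephalon, choroid plexus, eye, sensory ganglia, skeletal muscle, cartilage and meninges. Of 155 listed symbols 1 had no match. Alternatives were RLE size factors, other count filters, unstranded counts, the likelihood ratio test, DESeq2 1.42.0, an FDR of 0.05, the replicate number as a block, female mutant 3 included, sex read from Y-linked transcripts, a covariate for the caudal *Hox* level, *Hox*-containing libraries only, and each library left out. The GABAergic covariate, *Hox*-containing libraries with female mutant 3, and the embryo as a block for region by genotype were chosen after seeing the data. Plots were made in matplotlib 3.10.9 (Python 3.11.15).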

Additional observations from a re-analysis of the deposited data

Results flagged for a closer look

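Among 34 sets of 6 libraries checked, 7 had a library far from the other 5, where the gap divided by the range exceeded 0.625. Chance alone gives such a library in about 1 in 20 sets. In the control DMH, female control 1, which is *Hox*-poor, had the highest *Otx2* level at 136.1 CPM (others 63.6 to 90.4 CPM) and the lowest *Meis2* level at 266.6 CPM (others 348 to 384 CPM). In the control SP, male control 1 had *Foxb1* at 3.40 CPM (others 0.102 to 0.385 CPM) and female control 1 had *Pax3* at 0.492 CPM (others 0.204 to 0.307 CPM). In the mutant SP, female mutant 3 had *Foxb1* at 3.93 CPM (others 0.119 to 0.411 CPM) and *Pax7* at 0.659 CPM (others 0 to 0.213 CPM), and male mutant 1 had *Meis2* at 926 CPM (others 521 to 640.5 CPM).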

How the results depend on the processing

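Over 25 alternatives in DMH of both sexes *Dmbx1* was at 0.64 to 0.85 and *Foxb1* at −0.69 to −0.45, with directions that their selection fixes. *Otx2* ranged from 0.25 to 0.69, *Otx1* from 0.00 to 0.67 and *Pax3* from −0.02 to 0.40. *Otx2* passed the thresholds in 4 and *Otx1* in 1 of 25 alternatives, *Otx1* (0.66) and *Otx2* (0.60, FDR 0.166) both passing without male mutant 1. The fits that each left out a library called 2 to 515 of all genes, so nothing is read from these calls about *Otx1* or *Otx2*. Causes of the changes listed here were not tested, other than that fewer libraries or genes enter some fits.

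In the DMH fits above, the members called were *Dmbx1* and *Foxb1* in the fit of both sexes and *Dmbx1* in males. Both genes were selected on this comparison, so nothing is read from the DMH genotype counts that follow. The number of members called in DMH of both sexes, 2, was 1 with unstranded counts, an FDR of 0.05, the replicate block or female mutant 3 included, 0 in *Hox*-containing libraries with or without female mutant 3, and 1 to 4 when each library was left out. In female DMH it was 0, but 2 without a filter, in the likelihood ratio test and in DESeq2, 1 with the replicate block, and 0 to 3 when each library was left out. In male DMH it was 1, but 2 without a filter, in the likelihood ratio test, in DESeq2 and with the replicate block, 0 at an FDR of 0.05, and 0 to 1 when each library was left out. In DMH against SP it was 9, and 4 with at least 10 counts in every library, since only 4 were then tested. With the embryo as the replicate block there it was 9, and when each library was left out 9 to 9. In DESeq2 it was 8, since *Foxb1* got no adjusted p. The interaction of region and genotype had 0 to 1 when each library was left out and 0 with either replicate block. In SP and in the interaction of sex and genotype the count was 0 under every alternative run. Over all genes, the count in DMH of both sexes was 8, against 23 in the likelihood ratio test and 50 in DESeq2, and it was 2 to 515 when each library was left out, while in female DMH it was 0 to 1117. Among the alternatives named above, female DMH (1 of all genes) had 535 without a filter, 104 in the likelihood ratio test, 77 in DESeq2 and 35 with the replicate block, and male DMH (4) had 17, 11, 13 and 7, with 3 at an FDR of 0.05.

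Signs changed in these values. With the *Hox* covariate *Pax7* was at −0.072, *Meis2* at 0.079, *Pou4f1* at −0.043 and *Pou4f2* at −0.037. In *Hox*-containing libraries *Pax7* was at −0.029 and *Meis2* at 0.037, and with female mutant 3 added *Pax3* was at −0.016, *Pax7* at −0.17, *Meis2* at 0.037 and *Pou4f1* at −0.053. With the GABAergic covariate *Pax7* was at −0.18, *Meis2* at 0.027, *Pou4f1* at −0.061 and *Pou4f2* at −0.063. When each library was left out, *Pou4f2* in DMH was at −0.0048 (without male control 3) to 0.15, *Otx2* in SP at −0.24 to 0.053 (without male mutant 3) and *Pou4f1* in SP at −0.031 (without male mutant 2) to 1.11.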

Other observations

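Markers outside the midbrain also had medians away from 0 in DMH of both sexes, again with no gene past the thresholds and against a median of −0.0018 over all genes tested. The choroid plexus list, 9 genes of the epithelium that makes cerebrospinal fluid, was negative in 9 of 9 with a median of −0.45. By sex, the median was −0.89 with 9 of 9 negative in females and 0.06 with 7 of 9 positive in males, and the difference between the sexes was positive in 9 of 9, 5 of them at an unadjusted p under 0.05, as were 351 of all 17555 genes tested, and none past the thresholds. The median of both sexes was −0.17 once the caudal *Hox* level entered as covariate and 0.19 in *Hox*-containing libraries. Sensory ganglion genes had a median of −0.51, and 0.02 with the covariate. The telencephalon list was at −0.13, eye at −0.03, skeletal muscle at −0.03, cartilage at −0.04 and meninges at −0.09. With female mutant 3 included, skeletal muscle was at 3.08 and cartilage at 2.15.

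In controls, DMH against SP, where 35.0% of all genes passed the thresholds, 18 of the 22 midbrain and tectal patterning genes were higher in DMH and 4 were lower, among them *Neurog2* and *Sp8*, with a median log2 fold change of 3.75. Of the midbrain GABAergic fate genes 9 of 10 were higher. All 9 telencephalic markers tested were lower in DMH, with a median of −3.99.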
